A study of Mus musculus with 3 samples.

Results

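Acetylation of lysine 9 on histone H3 (H3K9ac) was compared between haematopoietic stem cells (HSCs) of old and of young mice through the 2 summit lists that carry those labels, from 1 CUT&Tag library each. A summit is the single base at which the authors' peak caller placed the top of a peak. All 33248 summits of the list labelled young were used, together with the 33248 highest-scoring of the 108787 summits labelled old. These are called equal-length lists, and their 66496 summits stand against the 187421 summits of the 3 lists of the series. A summit counted as shared if the other list had one within 500 bp. It was called a gene-end summit if a protein-coding gene record began or ended within 1 kb of it, and distal if it lay over 10 kb from every such end. Rank 1 is the highest score of a list, and a gene's rank is that of its best-ranked gene-end summit.

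Both libraries came from wild-type bone marrow of femora and tibiae after lysis of red cells, with 50000 sorted HSCs per assay. The mice were 2 to 4 months old for the young label and 18 to 24 months old for the old label. Another library, labelled old HSC ABC, came from mice of 18 to 24 months, and the labels do not spell out ABC. The protocol names both age ranges, and the first letter of each title (y or o) was taken to say which one applies. The sources used here do not give sex, strain, the number of mice in a pool or the sorting markers. Its list was also limited to 33248 summits and serves as a set of positions that played no part in sorting summits into shared and private. Each group has 1 library, so differences have no replicate check, no test was possible and no p-value is given. Read depth was unknown.

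H3K9ac is laid down by acetyltransferases, removed by deacetylases and read by proteins with bromodomains. It is enriched around the start sites of active genes and at active enhancers, and less so along gene bodies. HSCs are the rare marrow cells that renew themselves and give rise to all blood lineages, and their chromatin is known to change with age. CUT&Tag maps such a mark by tethering a transposase to an antibody, so that DNA near the mark is cut and tagged in place.

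The names written inside the peak names went against the labels. The list labelled young carried oHSC-H3K9ac-1, the list labelled old carried oHSC-ABC-H3K9ac-1, and the list labelled old HSC ABC carried oHSC-H3K9ac-2. Every value below belongs to the library labelled young, old or ABC, and no direction between ages can be drawn with more certainty than those labels have. Of 30 HSC identity genes 16 had a gene-end summit in the list labelled young, 18 in the one labelled old and 12 in the one labelled ABC. Of all 21887 protein-coding genes 9172, 9965 and 8866 had one, and of 26 neutrophil and monocyte genes 15, 20 and 14. These counts are therefore no check of cell type. Mecom, Hlf, Fgd5 and Erg, HSC genes with long records, were among the 10 HSC identity genes with none in the young- or the old-labelled equal-length list. For Mecom summits lay just outside the 1 kb window, and for Hlf and Fgd5 the whole old-labelled list held a gene-end summit.

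Start sites of 5 example genes are shown first, from 250 bases before to 50 bases after the start. They are as given by RefSeq for GRCm38.p6, the assembly that mm10 is built on. CpG dinucleotides are in capitals, since genes with a gene-end summit differed from the rest in their number. Plac8, a gene of myeloid and lymphoid cells, Camp, the cathelicidin of neutrophil granules, and Flt3, a cytokine receptor of multipotent progenitors, stood nearer the top of the old-labelled list or in it alone. Zfp335, a zinc-finger regulator of transcription, and Zfp944, a zinc-finger gene that starts back to back with Zfp758, stood nearer the top of the young-labelled list.
Plac8 chr5:100572156-100572455 (- strand): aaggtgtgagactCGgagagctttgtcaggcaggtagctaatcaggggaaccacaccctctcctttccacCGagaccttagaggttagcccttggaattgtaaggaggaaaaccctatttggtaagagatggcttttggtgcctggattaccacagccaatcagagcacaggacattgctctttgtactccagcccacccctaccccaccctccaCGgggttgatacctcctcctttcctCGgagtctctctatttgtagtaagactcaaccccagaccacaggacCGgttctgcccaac
Camp chr9:109849407-109849706 (- strand): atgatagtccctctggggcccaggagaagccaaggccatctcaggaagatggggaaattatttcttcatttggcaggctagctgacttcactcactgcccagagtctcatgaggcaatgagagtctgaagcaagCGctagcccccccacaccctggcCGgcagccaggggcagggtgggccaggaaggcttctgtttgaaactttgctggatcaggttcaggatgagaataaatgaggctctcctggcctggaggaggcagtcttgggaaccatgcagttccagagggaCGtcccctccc
Flt3 chr5:147400440-147400739 (- strand): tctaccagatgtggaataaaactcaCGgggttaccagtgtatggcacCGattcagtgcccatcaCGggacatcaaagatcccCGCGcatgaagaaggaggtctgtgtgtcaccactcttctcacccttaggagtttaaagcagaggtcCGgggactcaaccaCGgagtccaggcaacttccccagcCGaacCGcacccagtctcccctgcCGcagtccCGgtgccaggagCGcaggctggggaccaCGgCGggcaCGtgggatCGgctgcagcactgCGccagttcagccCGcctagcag
Zfp335 chr2:164911701-164912000 (- strand): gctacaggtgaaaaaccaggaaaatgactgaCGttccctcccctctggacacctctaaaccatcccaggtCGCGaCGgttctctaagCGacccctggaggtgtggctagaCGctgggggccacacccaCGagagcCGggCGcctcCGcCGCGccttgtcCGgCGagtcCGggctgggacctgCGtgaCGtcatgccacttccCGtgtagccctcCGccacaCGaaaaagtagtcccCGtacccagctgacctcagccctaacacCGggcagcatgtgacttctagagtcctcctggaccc
Zfp944 chr17:22361351-22361650 (- strand): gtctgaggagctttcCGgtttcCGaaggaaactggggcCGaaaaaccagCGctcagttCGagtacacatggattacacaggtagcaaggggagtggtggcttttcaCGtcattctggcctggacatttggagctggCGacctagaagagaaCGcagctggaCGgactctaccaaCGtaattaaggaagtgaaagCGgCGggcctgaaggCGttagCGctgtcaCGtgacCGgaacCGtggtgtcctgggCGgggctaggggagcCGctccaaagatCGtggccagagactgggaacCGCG

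The summit of Plac8 lay 46 bp before the start site in all 3 lists, and that of Zfp335 lay 41 (young), 39 (old) and 42 bp (ABC) before it. At Camp the best old-labelled summit lay 146 bp and the best young-labelled one 806 bp after the start, so the ranks of Camp belong to different parts of its short record. The old-labelled summit of Flt3 lay 417 bp after the start. The windows of Plac8 and Camp held 5 and 3 CpG dinucleotides, and those of Flt3, Zfp335 and Zfp944 held 18, 22 and 22. The ratio of observed CpG to that expected from base content was 0.25 for Plac8 and 0.13 for Camp. It was 0.65, 0.76 and 0.91 for Flt3, Zfp335 and Zfp944. These examples do not stand for their sides. Over all genes 4 times apart in rank the median ratio was 0.78 (nearer the top in old) and 0.81 (in young).

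Gene ends were the part of the genome on which both libraries mostly met, and distal positions were the part on which they mostly parted. Of the young-labelled gene-end summits 7449 of 9434 were shared with the old-labelled list, 79.0% (95% Clopper-Pearson interval 78.1 to 79.8). In the other direction 7381 of 9596 were shared, 76.9% (76.1 to 77.8). Of the distal summits, 6535 of 14516 young-labelled ones were shared, 45.0% (44.2 to 45.8), and 6478 of 14900 old-labelled ones, 43.5% (42.7 to 44.3). These intervals cover counting error on summits and leave out the spread between libraries. Among the first 10000 summits of each list the order of the libraries at distal positions turned, to 55.3% and 60.3%. Summits between 1 and 10 kb from a gene end stood between the other classes, with 48.9% and 51.0% shared. Where a counterpart existed it was close, with a median offset of 60 bp at gene ends and 83 bp at distal positions for young-labelled summits, and 58 and 81 bp for old-labelled ones.

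Both lists were built alike. Gene-end summits were 28.4% of the young-labelled and 28.9% of the old-labelled list, and distal summits 43.7% (43.1 to 44.2) and 44.8% (44.3 to 45.4). Distal summits inside a gene record made up 27.6% and 27.8%, and those between genes 16.1% and 17.0%. Only 37 and 43 summits lay on unplaced sequence or the mitochondrial genome. The ABC-labelled list held 27.2% gene-end and 45.4% distal summits.

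Sharing followed rank. In the highest-scoring of 10 equal bins, 70.3% of young-labelled and 73.0% of old-labelled summits lay at gene ends, and 94.6% and 95.2% of them were shared. The distal summits of that bin were shared as often, 95.8% (93.3 to 97.6) and 94.7% (91.9 to 96.7). In the lowest bin 58.5% of young-labelled and 63.4% of old-labelled summits were distal, and 20.1% and 22.9% of those were shared. Among old-labelled summits gene-end ones were shared more often than distal ones by more than counting error in 3 of the 10 bins. The shares were 85.7% (83.9 to 87.4) against 80.3% (77.7 to 82.7) in the third bin, 74.0% (71.2 to 76.6) against 65.4% (62.8 to 67.9) in the fourth and 40.8% (36.1 to 45.6) against 33.6% (31.5 to 35.8) in the seventh. In the lowest they were 22.5% and 22.9%. Among young-labelled summits the intervals of the classes were apart in every bin from the fourth on, with 61.0% (56.2 to 65.6) against 35.1% (33.0 to 37.4) in the seventh bin and 37.3% (32.0 to 42.9) against 20.1% (18.3 to 21.9) in the lowest.

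**Figure D1:**
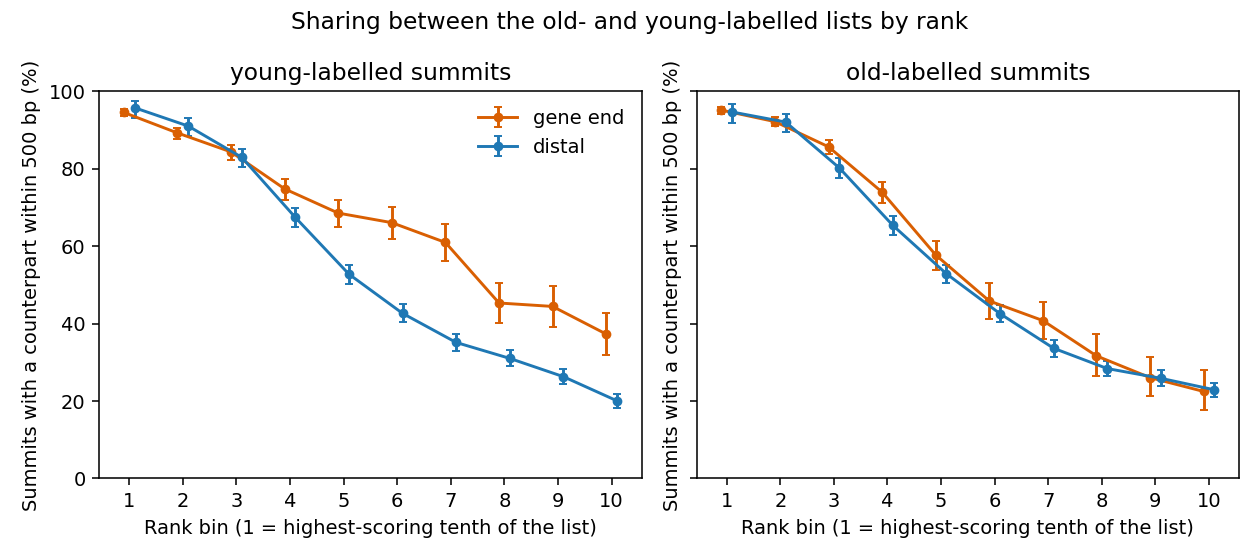
Percentage of summits with a counterpart of the other list within 500 bp (vertical axis) in 10 bins of rank (horizontal axis), for gene-end and distal summits of the young-labelled (left) and old-labelled (right) equal-length lists. Points are shares of 1 library and bars are exact 95% intervals for counting error. Both classes start near 95% and the lowest bins stand at 20.1% to 37.3%.

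Position aside, ranks of shared summits correlated more strongly at gene ends. Their ratios, which the length of the lists limits, did not lie closer together there. Over 18297 pairs of summits that were each other's nearest, Spearman's rho between the 2 ranks was 0.83 for 7336 gene-end pairs and 0.57 for 6471 distal pairs. These are descriptions over positions of the same 2 libraries and carry no p. A rank at least 4 times nearer the top in the old-labelled list was seen for 128 gene-end (1.74%) and 41 distal pairs (0.63%), beside 1.09% of all pairs. The reverse was seen for 84 (1.15%) and 60 (0.93%), beside 1.15%. The log2 of young over old rank had quartiles of -0.42 and 0.71 at gene-end and -0.56 and 0.44 at distal pairs. Young-labelled gene-end and distal summits had median ranks of 7536 and 20679.5, so the rho values cover unlike ranges of rank.

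The third library met private summits less often than shared ones, and gene-end ones more often than distal ones. Of 1985 young-labelled private gene-end summits 39.5% (37.3 to 41.7) had an ABC-labelled summit within 500 bp, and of 7981 private distal ones 20.5% (19.6 to 21.4). For the old-labelled list it was 36.5% (34.5 to 38.6) of 2215 and 29.9% (28.9 to 30.9) of 8422. Shared distal summits were met in 68.1% and 68.0% of cases, and shared gene-end summits in 84.5% and 85.0%. At distal positions the ABC-labelled library therefore held more of what was private to the old-labelled list than of what was private to the young-labelled one, by more than counting error. The order held in each rank bin from the third on, for example 45.3% (37.8 to 52.8) of 179 against 65.5% (58.4 to 72.1) of 197 in the third bin and 11.4% against 20.4% in the lowest. In the highest bin, with 16 and 20 private distal summits, the shares were 87.5% and 55.0% and the intervals overlapped.

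**Figure D2:**
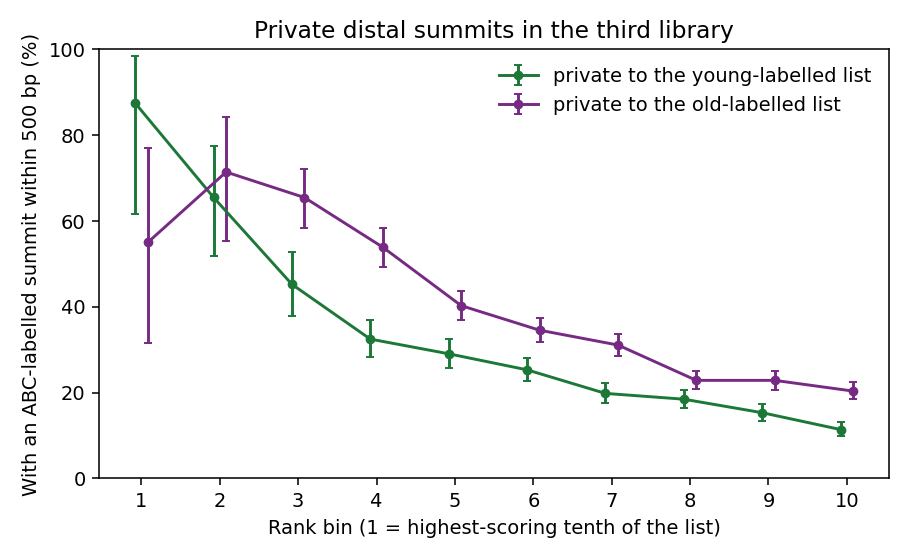
Percentage of distal summits private to the young-labelled or to the old-labelled list that had an ABC-labelled summit within 500 bp (vertical axis), by rank bin of their own list (horizontal axis). Points are shares of 1 library and bars are exact 95% intervals for counting error. From the third bin on the old-labelled points lie above the young-labelled ones.

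Much of what was private to the young-labelled list lay below the score limit of the old-labelled one. In the whole old-labelled list, which is over 3 times as long, 4325 of the 7981 young-labelled private distal summits (54.2%) and 475 of the 1985 private gene-end summits (23.9%) had a neighbour within 500 bp. Only 1323 of the distal ones lay over 5 kb from every summit of it. The same question cannot be put to the young-labelled list, all of which was used, and 6982 of the 8422 old-labelled private distal summits lay over 5 kb from it.

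The strongest distal summits were not where the libraries differed. The first 10 distal summits of each list all had a counterpart within 50 bp, and 8 of each 10 lay between genes. Of the first 100, 98 young-labelled and 94 old-labelled ones were shared. No list of artefact regions was applied, so sites of this kind are not read as acetylation. Among old-labelled distal summits with no summit of the young-labelled list within 5 kb, the highest stood at chr4:153153101, rank 20, 220120 bp from Ajap1. Its nearest young-labelled summit was 518849 bp away and its nearest ABC-labelled one 1 bp. The next stood at chr16:45353027, rank 150, between genes and 29084 bp from Cd200, an immunoglobulin-family surface protein, with an ABC-labelled summit at 48 bp. Another at chr16:93789236, rank 185, lay in Dop1b and had an ABC-labelled summit at 13 bp. Of the first 10 such summits 7 had an ABC-labelled summit within 102 bp, among them rank 4306 in Galnt7, an enzyme of protein glycosylation, at 2 bp. ABC-labelled distances here, and for the young-labelled summits named next, were taken from the whole ABC-labelled list.

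On the young-labelled side such summits had to lie over 5 kb from the whole old-labelled list, which is over 3 times as long, so their ranks cannot be set against those of the other side. In equal-length lists the highest bin held 16 young-labelled and 20 old-labelled private distal summits. The first young-labelled summit with none of the whole old-labelled list within 5 kb stood at chr1:24613115, rank 4018, 25193 bp from Col19a1, with an ABC-labelled summit at 3 bp. One at chr8:117593565, rank 6380, lay in Plcg2, the phospholipase of immune receptor signalling, and coincided with an ABC-labelled summit. Another at chr11:80920618, rank 7356, lay in Asic2 with an ABC-labelled summit at 6 bp. Each of these 3 had an old-labelled summit of the whole list between 11306 and 20805 bp away or, for Asic2, at 5670 bp. The summit at chrX:33928486, rank 5132, had none of either other list within 1961045 bp.

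Distal summits formed clusters in both lists. Joining distal summits at most 10 kb apart gave 12018 domains in the young-labelled and 12380 in the old-labelled list, of which 371 and 387 held 3 or more summits. The domains named here were chosen for the most summits in their own list. Lower counts in the other lists are thus partly a result of that choice. A domain at chr14:31763051-31780032, nearest to Ankrd28, held 5 young-labelled, 0 old-labelled and 1 ABC-labelled summits, and 1 of the whole old-labelled list. One nearest to Mef2c, a transcription factor of muscle, nerve and blood cells, held 5, 1 and 3 (chr13:83518369-83530113). A domain in the same size class at chr19:5786649-5803014 overlapped the record of the long noncoding RNA Malat1 and held 6 old-labelled, 2 young-labelled and 4 ABC-labelled summits. One at Hk1, the hexokinase that starts glycolysis, held 7, 3 and 3 (chr10:62294293-62327717). The largest domain of each list lay at the start of chromosome 9, with 9 young-labelled and 10 old-labelled summits.

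By nearest gene, the examples below are from the genes with the most distal summits over both lists together. High counts in each list are thus partly a result of that choice, and counts were not scaled to gene length. Arid1b, a subunit of the BAF chromatin remodelling complex, was nearest to 27 young-labelled and 26 old-labelled distal summits, of which 16 were shared. Pde4d, which breaks down cyclic AMP, had 23 and 22, with 16 shared, and Foxp1, a transcription factor of lymphoid cells, had 16 and 16, with 9 shared. Elmo1, an adaptor in cell migration, had 19 and 14, and Wwox 11 and 18 with 3 shared. Around the 30 HSC identity genes lay 67 young-labelled, 90 old-labelled and 70 ABC-labelled distal summits, with 28 of the first and 28 of the second shared. The equal-length lists held 14516, 14900 and 15111 distal summits, and 45.0% of all young-labelled and 43.5% of all old-labelled ones were shared. Runx1, the transcription factor needed for HSCs to form, had 6, 13 and 10. Mecom, needed for HSC upkeep, had 3, 7 and 5, and the ETS factor gene Erg had 12, 10 and 14.

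For genes the comparison was made on ranks. Of 21887 protein-coding genes 8454 had a gene-end summit in both equal-length lists, and their ranks were close, with Spearman's rho at 0.82 over genes. The 2 best summits lay within 500 bp of each other in 7525 of them, 89.0%. The log2 of young over old rank, which is above 0 where a gene stood nearer the top in the old-labelled list, had a median of 0.16 and quartiles of -0.43 and 0.70. Of the 8454 genes 4820 stood nearer the top in the old-labelled list and 3633 in the young-labelled one. Of the genes within the first 100 ranks, 49 in each list, 29 were in both. Wls, which carries Wnt proteins to the cell surface, ranked 27, 25 and 24 in the lists labelled young, old and ABC, an order kept wherever 3 ranks follow each other below. Rbm5, a splicing factor, ranked 49, 50 and 59, and Gosr1, a vesicle fusion protein of the Golgi, ranked 59, 57 and 140. The genes in the first 100 of both lists were 59.2% of those of each.

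A rank at least 4 times nearer the top in the old-labelled list was seen for 159 of 8454 genes (1.88%), and at least 4 times nearer in the young-labelled list for 107 (1.27%). With best summits within 500 bp of each other the counts were 133 of 7525 (1.77%) and 90 (1.2%), and with ends taken within 500 bp 122 and 58. Between the young- and ABC-labelled lists such gaps were seen for 306 genes (nearer the top in young) and 173 (in ABC) of 7838. Between the old- and ABC-labelled lists it was 307 (in old) and 82 (in ABC) of 8165. Gaps of this size were thus not particular to the old and young labels. Of the 159 genes 149 had a gene-end summit in the ABC-labelled list, and the median ranks of these were 4422, 915 and 2275. Of the 107 genes 103 had one, with medians of 617, 3077 and 2103. In each set the ABC-labelled median lay between the other medians. Both sets were chosen for young- and old-labelled ranks at least 4 times apart. A median between them can come from that choice alone, so no conclusion is drawn from it.

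**Figure D3:**
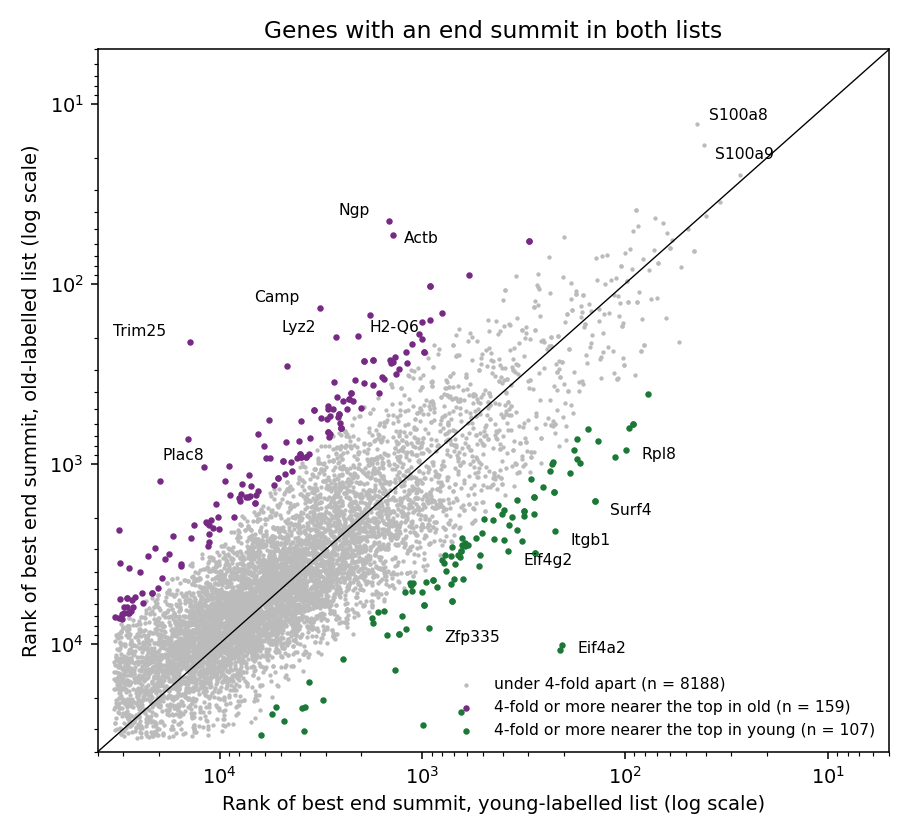
Rank of each gene's best gene-end summit in the young-labelled (horizontal) and old-labelled (vertical) equal-length list, both on log scales with rank 1 toward the upper right, for 8454 genes with a summit in both lists. The line marks equal ranks, and colours mark the 159 and 107 genes at least 4 times apart. S100a8 and S100a9 are the highest old-labelled genes, and Ngp, Actb and Camp lie far above the line.

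Genes of neutrophil granules were among those with the largest rank ratios toward the old-labelled list. Ngp, a granule protein of neutrophils on chromosome 9 (110419808 to 110423012), ranked 1453 in the young-labelled list and 45 in the old-labelled one, and had no gene-end summit in the ABC-labelled equal-length list, although the whole ABC-labelled list held one 100 bp from an end. Camp ranked 3204 and 137, and the nearest one of the ABC-labelled list was 4822 bp away. Lyz2, the lysozyme of myeloid cells on chromosome 10 (117277541 to 117282272), ranked 2667, 199 and 27910, with young- and old-labelled summits 2 bp apart. These summits of Lyz2 lay at the far end of the record, away from the start. All 3 genes were within the first 200 ranks of the old-labelled list, and in the ABC-labelled equal-length list they ranked below both other lists or were absent.

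Other genes on that side differed in how the third library placed them. Actb, cytoplasmic actin, ranked 1402 and 54, Tmsb4x, which binds actin monomers, ranked 6431 and 684, and neither had a gene-end summit in the ABC-labelled equal-length list. The whole ABC-labelled list held one 148 bp from an end of Actb, so that absence is one of the score limit. The best young- and old-labelled summits of Actb lay at the far end of its record, away from the start. Gtpbp4, a GTPase of ribosome assembly, ranked 4655, 287 and 5767, with all summits within 6 bp. H2-Q6, a class I MHC gene, ranked 2079, 196 and 2989. Reads of the H2-Q genes can be split among near-identical copies, so its rank is uncertain. In Gtpbp4 and H2-Q6 the ABC-labelled rank was below both others.

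For a further group the ABC-labelled rank lay between the other ranks. Plac8, whose start site is printed above, ranked 8982, 1032 and 1563. Cyb5a, cytochrome b5, ranked 1815, 149 and 771, and Tomm5, a subunit of the mitochondrial import pore, ranked 5720, 572 and 1969. Nr1h3, the oxysterol receptor LXR alpha, ranked 921, 103 and 484 with a summit that it shares with the adjoining gene Acp2. Trim25, a ubiquitin ligase of antiviral signalling, ranked 13928, 210 and 361. Its old- and ABC-labelled summits lay at 89000232 on chromosome 11, and the young-labelled one 755 bp away, so it is not the same site. With ends taken within 2 kb the log2 rank ratio of Trim25 fell from 6.05 to 2.85. The best summits of Camk2g lay 58926 bp apart, those of Myl6b 5606 bp and those of Zgpat 999 bp. Under the same wider window the log2 rank ratio of Camk2g went from 3.98 to 2.92, that of Myl6b turned from 4.29 to -2.08, that of Zgpat from 3.51 to -0.91 and that of Dgcr8 from 3.75 to -0.18.

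On the young-labelled side the named genes came from several functions. Rpl8, a protein of the large ribosomal subunit, ranked 99, 837 and 263 with young- and old-labelled summits 1 bp apart. Cox7a2l, which helps join respiratory complexes, ranked 112, 918 and 509, and Surf4, a cargo receptor of the endoplasmic reticulum, ranked 141, 1611 and 740. Eif4g2, a translation initiation factor, ranked 378, 3077 and 1347, and Dus1l, a tRNA-modifying enzyme, ranked 321, 2705 and 3731. The ABC-labelled rank lay between the other ranks for Rpl8, Cox7a2l, Surf4 and Eif4g2 and below both for Dus1l.

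An integrin gene and 3 zinc-finger genes stood there as well. Itgb1, the integrin beta chain by which HSCs attach to their niche (chromosome 8, 128685654 to 128733579), ranked 221, 2371 and 2349, with summits 1 bp apart in the young- and old-labelled lists. Zfp335, printed above, ranked 932, 8179 and 5580. The shared start of Zfp944 and Zfp758 ranked 278, 3153 and 609. At Itgb1 and Zfp335 the ABC-labelled rank was near the old-labelled one, and at Zfp944 near the young-labelled one. The 4 largest differences on this side, Fam120a, Eif4a2, Dcaf11 and Dnajc7, came from best summits 88767, 1092, 9327 and 36305 bp apart, at other ends or sites of the record. With ends taken within 2 kb their log2 rank ratios went from -5.69, -5.63, -5.21 and -4.85 to -0.57, -1.63, -0.72 and -1.91.

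A gene-end summit in the old-labelled list and none in the young-labelled one was seen for 1511 genes (6.9%), and the reverse for 718 (3.28%). These genes lay low, with a median rank of 17419 and 19280 against 5247.5 and 5684.5 for genes in both lists. Only 89 and 64 of them lay in the first 5000. The counts were 1822 and 1137 with ends taken within 500 bp, and 1110 and 403 with start sites of the promoter table in place of record ends. Between the young- and ABC-labelled lists 1334 genes were in the young-labelled list only and 1028 in the ABC-labelled list only. Between the old- and ABC-labelled lists 1800 were in the old-labelled list only and 701 in the ABC-labelled list only. The ABC-labelled list had a gene-end summit for 600 of the 1511 (39.7%) and 273 of the 718 (38.0%). Many were cases of a summit just outside the window or below the limit of score. Of the 1511 genes 695 had a young-labelled summit 1 to 5 kb from an end, and of the 718 genes 371 (51.7%) had a gene-end summit in the whole old-labelled list.

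With absence taken as no summit of the other whole list within 5 kb of an end, 816 genes (3.73%) were left for the old-labelled library and 31 (0.142%) for the young-labelled one. The whole old-labelled list is the longer one, so that limit is stricter for the young-labelled side. Within equal-length lists the counts were 816 (3.73%) and 270 (1.23%). The 15 leaders of the old-labelled side included Retnlg, Asmt, Chm, Lrif1, Spon1, Slc27a6, Hesx1, Nr1d2, Grk5, Rnf144b, Stpg2, Fbxo2, Lrguk and Gemin8. Retnlg, a resistin-like protein of neutrophils, ranked 1582 and its nearest young- and ABC-labelled summits lay 120103 and 120188 bp from an end. Grk5, a kinase of G protein-coupled receptors, ranked 6528 (old) and 13448 (ABC). Rnf144b, a ubiquitin ligase, ranked 6614 and 16375. Of the 15, 10 had an ABC-labelled gene-end summit, and Retnlg, Stpg2, Fbxo2, Lrguk and Gemin8 had none in the equal-length list. The whole ABC-labelled list held one 157 bp from an end of Gemin8.

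The 15 leaders of the young-labelled side ranked from 8453 to 26824. They were Aff2, Ccno, Clec4a2, Col2a1, Gdf10, Gzme, Hspb2, Ifnz, Lyg2, Mrgpra2b, Neto2, Pbld1, Rhbg, Rsph4a and Scnn1g. Clec4a2, a lectin receptor of myeloid cells, ranked 9742, and Gzme, a granzyme, ranked 26341. Rhbg, an ammonium transporter, alone of the 15 had a gene-end summit in the ABC-labelled equal-length list, at rank 18973. The whole ABC-labelled list also held one 719 bp from an end of Clec4a2 and one 724 bp from an end of Ccno.

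Neutrophil and monocyte genes included the first genes of the old-labelled list. Of 26 genes 15 had a gene-end summit in the list labelled young, 20 in the one labelled old and 14 in the one labelled ABC, and of all 21887 genes 9172, 9965 and 8866 had one. Of the 26, 6 were in the old-labelled list and not in the young-labelled one (Retnlg, Elane, Mmp8, Ltf, Fcgr3 and Spi1) and 1 the reverse (Cebpa), beside 6.9% and 3.28% of all genes. Among the 14 genes in both, 11 stood nearer the top in the old-labelled list, 3 of them by 4 times or more, and the median log2 ratio was 0.51 beside 0.16 for all genes. Of all 8454 genes in both, 4820 stood nearer the top in the old-labelled list, 159 of them by 4 times or more. Other lists had higher medians, 1.45 for the erythroid, 0.89 for the stroma and endothelium, 0.62 for the megakaryocyte and 0.54 for the circadian clock genes, over 3, 6, 4 and 5 genes in both lists. S100a8 and S100a9, which together form calprotectin, ranked 44, 13 and 807, and 41, 17 and 2253. They were the first 2 genes of the old-labelled list. Elane and Mmp8, granule proteases, ranked 20041 and 20775 and had no young-labelled summit within 4771 and 26960 bp of an end. Prtn3, Ly6g, Itgam, Irf8 and Mmp9 had no gene-end summit in any of the 3 equal-length lists.

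Neither the granule genes nor the transcription factor genes of the lineage all stood on one side. Among granule genes Ctsg, cathepsin G, ranked 7397, 8761 and 18949, Mpo, myeloperoxidase, ranked 25092, 15694 and 29339, and Lcn2, the siderophore-binding lipocalin, ranked 4626, 3782 and 4386. Among factor genes, Cebpa, the factor that commits cells to the granulocyte path, ranked 2596 in the young-labelled and 3937 in the ABC-labelled list, and an old-labelled summit lay 1004 bp from an end, just outside the window. Cebpd ranked 4857, 8448 and 6607, Cebpe 15821, 27820 and 21608, and Cebpb 10472, 9287 and 17915. Spi1, which encodes the myeloid factor PU.1, had no young-labelled rank and ranked 22776 (old) and 26241 (ABC). Ly6c2, a surface protein of monocytes, ranked 7279, 5713 and 6695. In these libraries of sorted cells measured in bulk, more cells of a type and more acetylation per cell cannot be told apart, and the part of other cell types in these ranks was not tested.

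**Figure D4:**
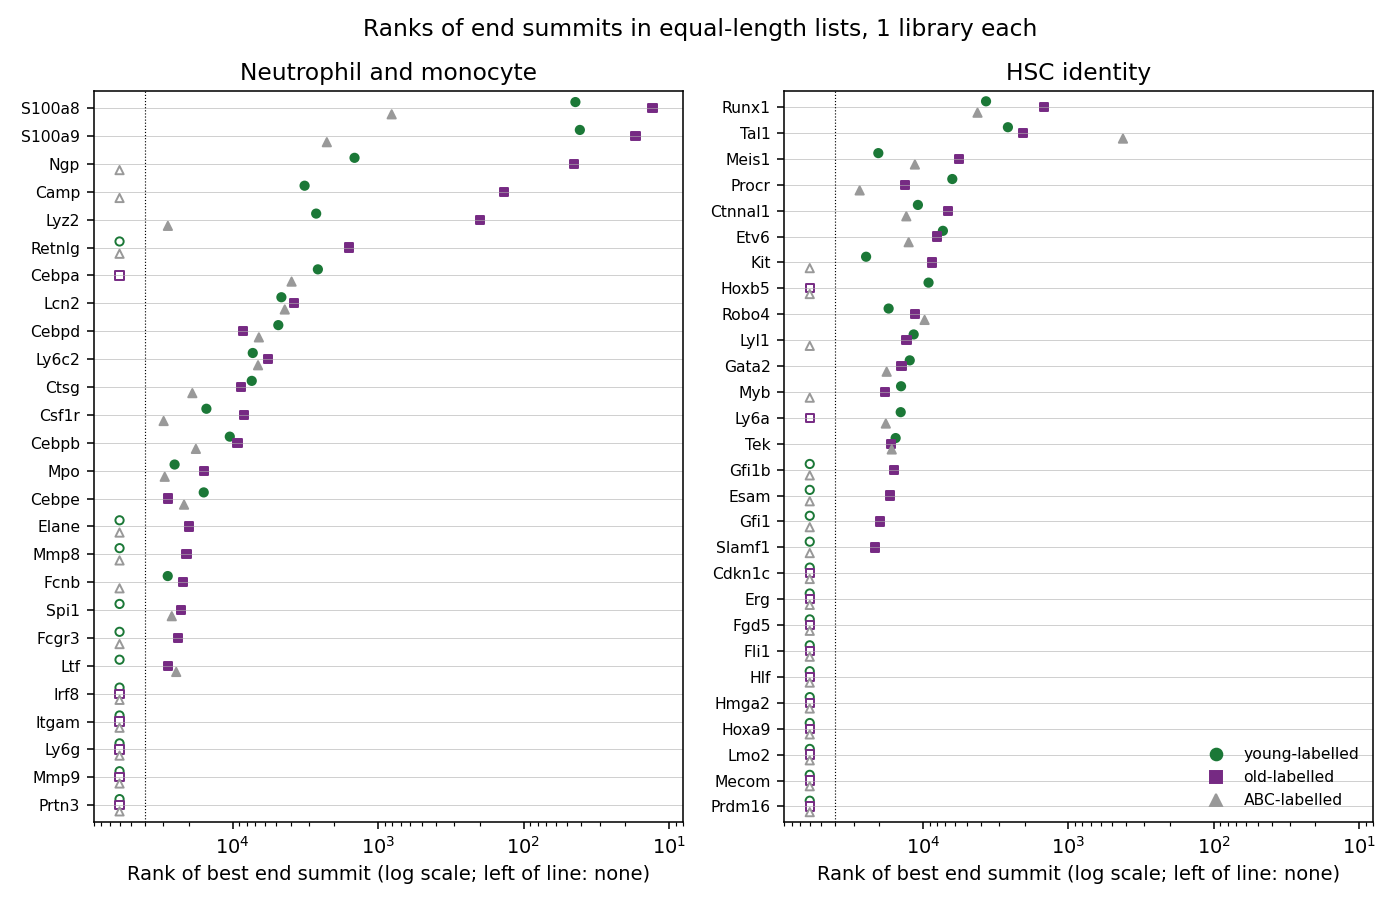
Rank of the best gene-end summit (horizontal axis, log scale, rank 1 toward the right) of neutrophil and monocyte genes (left) and of HSC identity genes reported here (right) in the 3 equal-length lists, 1 library each. Open symbols left of the dotted line are genes with no gene-end summit in that list. Ngp, Camp and Lyz2 stand farther right in the old-labelled list, and the HSC identity genes lie close together or differ in both directions.

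HSC identity genes were split. Of 30 genes 14 had a gene-end summit in both lists, 7 nearer the top in each, with a median log2 ratio of 0.12 and none 4-fold apart. Runx1 ranked 3680, 1466 and 4212. Meis1, a homeobox partner in HSC renewal, ranked 20256, 5670 and 11352, and Kit, the receptor of stem cell factor, ranked 24585 and 8611 and had no ABC-labelled one. These 3 stood nearer the top in the old-labelled list.

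Others stood nearer the top in the young-labelled list or did not differ by much. Procr, which encodes the surface receptor EPCR, ranked 6279, 13266 and 27223. Gata2, a zinc-finger factor of HSCs, ranked 12316, 14055 and 17749, and Tek, the angiopoietin receptor, ranked 15398, 16478 and 16378. Tal1, a basic helix-loop-helix factor, ranked 2603, 2055 and 421, and Etv6 ranked 7287, 8008 and 12530. Ctnnal1 ranked 10824, 6755 and 13003, Robo4 17207, 11273 and 9736, Lyl1 11573 and 12947 with no ABC-labelled one, and Myb 14135 and 18270 with none.

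On the old-labelled side only were Slamf1, Gfi1b, Gfi1 and Esam, with ranks of 21313, 15724, 19662 and 16753, and none of these 4 had an ABC-labelled gene-end summit. Slamf1 encodes the surface marker CD150, and its nearest young-labelled summit lay 16498 bp from an end. For Gfi1 it lay at 1662 bp. On the young-labelled side only were Hoxb5, at rank 9146, and Ly6a, which encodes Sca-1, at rank 14213. The young-labelled summit of Hoxb5 lay 986 bp from an end and is also the best one of Hoxb3, and a summit of the whole old-labelled list lay at 1003 bp. The nearest old-labelled summit to an end of Ly6a lay at 1120 bp. Cdkn1c, Erg, Fgd5, Fli1, Hlf, Hmga2, Hoxa9, Lmo2, Mecom and Prdm16 had none in either equal-length list. The nearest young- and old-labelled summits lay 1481 and 1493 bp from an end of Mecom and 1247 and 1617 bp from one of Hoxa9. For Erg they lay farther off, at 16813 and 3407 bp. The whole old-labelled list held a summit 87 bp from an end of Lmo2, 727 bp from one of Hlf and 913 bp from one of Fgd5.

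Genes of inflammatory signalling, interferon response and antigen presentation were found on both sides. Of 28 NF-kB genes 19 had a young-labelled and 25 an old-labelled gene-end summit, with 6 on the old-labelled side only, beside 6.9% of all genes. Of the 19 in both lists 14 stood nearer the top for the label old and 5 for young, with a median log2 ratio of 0.35. For all 8454 genes in both lists the same values were 4820, 3633 and 0.16. Nfkb1 and Rel, NF-kB subunits, ranked 1504 and 2954, but young-labelled summits lay 1184 and 1124 bp from their ends. Il10, Il6, Ptgs2 and Tlr9 ranked between 9457 and 31882, and their nearest young-labelled summits lay 14506 to 56834 bp from an end. Rela, another subunit, ranked 2369, 792 and 6122. Of 27 AP-1 and immediate early genes 19 were in both lists, 14 of them nearer the top for the label old and 5 for young. Their median log2 ratio was 0.18. None was 4-fold apart, which genes low in both lists cannot be, beside 1.88% and 1.27% of all genes in both. Jun ranked 2540, 828 and 1291 with summits 1 bp apart in the young- and old-labelled lists, and Junb ranked 24908 and 7528. On the other side Myc ranked 6960, 12248 and 6600, Fosl1 11225 and 16738, Dusp1 6505, 8442 and 3938, and Atf3 8157, 10170 and 27784.

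Of 24 interferon response genes 21 had a gene-end summit in both lists, with a median log2 ratio of 0.00. Irf7, the regulator of interferon production, ranked 1131, 5118 and 2539, and Ifi35 ranked 108, 336 and 143. Both stood nearer the top in the young-labelled list, while Trim25 stood on the other side. Among antigen presentation genes the shared start of Tap1, the peptide transporter, and Psmb9, an immunoproteasome subunit, ranked 713, 5796 and 2343. H2-K1, a classical class I gene, ranked 7584, 2014 and 2311, and H2-Q7 ranked 3946, 582 and 3438, with the same doubt over copies as H2-Q6.

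Most genes of protein synthesis and respiration were in both lists. Of 28 cytosolic ribosomal protein genes 24 were in both, 3 in the old-labelled list only and 1 in neither. Of the 24, 14 stood nearer the top in the young-labelled list, 2 of them by 4 times or more, and the median log2 ratio was -0.19 beside 0.16 for all genes. Rpl27, of the large subunit, ranked 296, 1114 and 520. Rps2, Rps19 and Rpl18 were in the old-labelled list only, with young-labelled summits at 1034, 1674 and 1883 bp. Of 29 respiratory chain genes 27 were in both, with a median of 0.27, 2 of them 4-fold nearer the top for the label old and 1 for young. Uqcrb, a subunit of complex III, ranked 297, 58 and 80, and Sdhd, the membrane anchor of succinate dehydrogenase, ranked 1745, 265 and 708. Cycs, cytochrome c, ranked 694, 3631 and 1864. Of the 27, 14 stood nearer the top for the label old and 13 for young.

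Among sphingolipid metabolism and ferroptosis genes 1 of each list was 4-fold apart in rank. Of 35 sphingolipid genes 17 were in both, with a median log2 ratio of 0.04, and 1 of the 17 was 4-fold nearer the top in the young-labelled list, beside 1.27% of all genes in both. Sphk2, a kinase that makes sphingosine 1-phosphate, ranked 1759, 7652 and 11205, from young- and old-labelled summits that lay outside its own record and within that of the overlapping ribosomal gene Rpl18. Of 32 ferroptosis and iron genes 18 were in both, with a median of 0.14, and 1 of the 18 was 4-fold nearer the top in the old-labelled list, beside 1.88%. Slc3a2, the heavy chain of the cystine transporter, ranked 1938, 357 and 1044 with young- and old-labelled summits at the same base. Nfe2l2, the regulator of antioxidant genes, ranked 1325 in the old-labelled list and had a young-labelled summit at 1150 bp. Of 25 histone acetylation enzymes 15 were in both, with a median of -0.20, and Ep300, the acetyltransferase p300, ranked 1088, 4025 and 2560.

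Ageing genes and markers of other cells made up further lists. Of 30 HSC ageing genes 11 were in both and 6 in the old-labelled list only, Cavin2, Slamf1, Gpr183, Ptger4, Egr1 and Mt2, with ranks from 21313 to 32953, beside 6.9% of all genes in the old-labelled list only. The 11 had a median log2 ratio of 0.31. None was 4-fold apart, which genes low in both lists cannot be, beside 1.88% and 1.27% of all genes in both. Of 16 megakaryocyte and platelet genes 4 were in both, and 3 of the 4 stood nearer the top in the old-labelled list. Another 3 of the 16, Itga2b, Nfe2 and Rab27b, were in the old-labelled list only, beside 6.9% of all genes. Of 15 erythroid genes 3 were in both, and all 3 stood nearer the top in the old-labelled list, with a median log2 ratio of 1.45, among them Car2, carbonic anhydrase 2, at ranks 12533, 4338 and 12079. Lymphoid genes stood at 5 (young) and 7 (old) of 26, and genes of other tissues at 3 and 4 of 26, beside 9172 and 9965 of all 21887 genes. Of 18 genes of stroma and endothelium 8 and 6 had a gene-end summit. All 6 in both lists stood nearer the top in the old-labelled one, beside 4820 of all 8454 genes in both. Their median log2 ratio was 0.89. Beside 1.88% of all genes in both, 2 of the 6 stood nearer the top by 4 times or more. These were Pdgfrb and Emcn, a receptor of mural cells and a sialomucin of endothelium, which ranked 28602, 5583 and 27012, and 18539, 3387 and 5471. Their part in the other differences was not tested.

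The place of a summit around its start site differed slightly between the libraries. A start site of the RefSeq promoter table was known for 17492 genes, 79.9%. Of the gene-end summits on the chromosomes of that table, 76.3% (young-labelled) and 75.8% (old-labelled) lay within 1 kb of a start. Among all summits within 1 kb of a start, the median lay 218 bp downstream for the label young, 191 bp for old and 201 bp for ABC. The old-labelled list had more summits in the first 250 bp after the start, 32.0% (31.1 to 33.0) against 27.7% (26.8 to 28.7). It had fewer at 500 bp or more, 21.2% (20.4 to 22.1) against 25.7% (24.8 to 26.6). The ABC-labelled list gave 29.1% and 25%, nearer the young-labelled values. The intervals cover counting error on summits, and 1 library a group gives no spread for these shares.

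**Figure D5:**
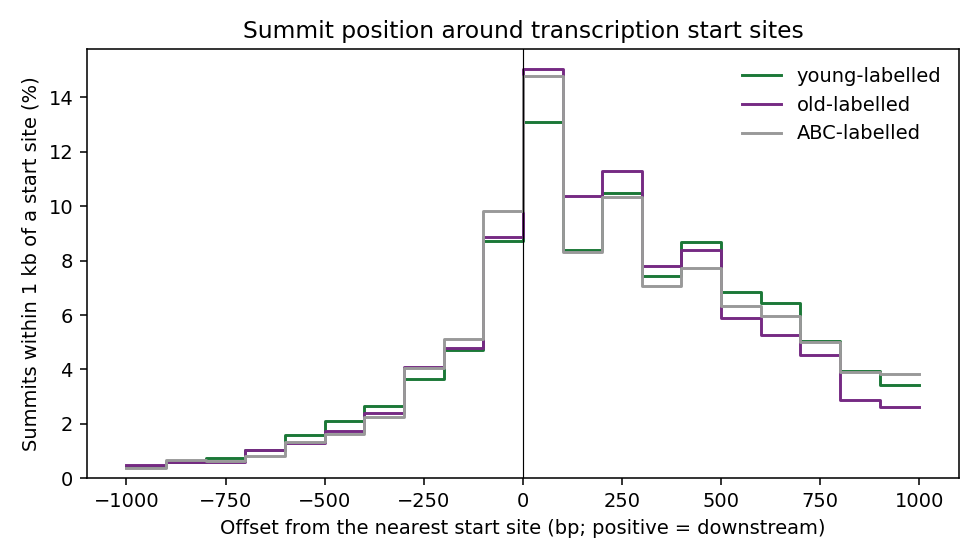
Percentage of summits (vertical axis) by offset from the nearest start site (horizontal axis, bp, positive downstream) in steps of 100 bp, for summits within 1 kb of a start in the 3 equal-length lists. Most summits lie downstream, 73.6% in the young-labelled and 74.0% in the old-labelled list, and the old-labelled line lies below the others beyond 500 bp.

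Genes with a summit in 1 list only were more often marked away from the start. For genes with a known start and a record over 3 kb, 3.31% of the best old-labelled summits and 3.59% of the best young-labelled summits of genes in both lists lay at the far end. That share was 12.5% (10.5 to 14.6) of 1058 genes in the old-labelled list only and 21.8% (18.3 to 25.5) of 533 in the young-labelled list only. It was 12 of 129 among genes 4 times nearer the top in the old-labelled list, Lyz2 and Actb among them, and 4 of 81 on the other side. A summit at the far end of a record need not belong to the promoter of that gene.

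Promoter sequence set marked genes apart from unmarked ones more than it set the libraries apart. Over the 300 bases of the promoter table the median ratio of observed to expected CpG was 0.80 for genes in both lists, 0.71 for those in 1 list only, whichever it was, and 0.30 for genes in neither. Among genes 4 times apart in rank it was 0.78 (nearer the top in old) and 0.81 (in young). The GC box GGGCGG, searched on both strands, was in 67.9% of promoters of genes in both lists, 63.7% and 62.6% of those in 1 list only and 32.0% of those in neither, against 49.2% of all promoters. It was in 53.7% of the promoters of genes 4 times nearer the top in the old-labelled list and 68.3% of those on the other side. The ETS motif CCGGAAG was in 23.3%, 13.0%, 10% and 5.09% of the same first 4 sets, against 12.9% of all. The C/EBP motif TTNNGNAA was in 36.8% and 29.3% of the promoters of genes 4 times apart, old side first. It was in 34.9% of those of genes in both lists, 47.1% of those in neither and 41.4% of all. Of the printed start sites Plac8 held 1 and Zfp944 2 matches to it, and Zfp944 held 1 GC box. Matches of different motifs were allowed to overlap, and a match is a description of letters in the window.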

How the data were processed

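H3K9ac CUT&Tag summit lists of 3 mouse HSC libraries were used, 1 per group, grouped by label. The build was mm10 and the tools were edgeR, MACS2, Picard and BWA, per the submitters' processing notes, which give no roles, versions, control or settings. The authors' deposited score of a summit was read as −log10 of MACS2's q-value, because the lists start just above 1.30, the −log10 of 0.05. Scores were used only to rank summits within a list. The equal-length old-labelled list ended at a score of 5.86, at which 6 summits tied and 2 were kept in file order.

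Gene ends came from 21887 protein-coding RefSeq records of GRCm38.p6 (no strand), and start sites and promoters from the RefSeq promoter table, which covered 79.9% of them. Shares have exact 95% Clopper-Pearson intervals. Python 3.11.15, numpy 2.4.6, pandas 2.3.3 and scipy 1.17.1 were used, and the counting steps were tested on simulated data. Alternatives were other sharing distances, distal limits and gene-end windows, shorter and whole lists, merged summits and chromosomes 1 to 19 alone.

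Named genes were, per direction, 15 in 1 list with no summit of the other whole list within 5 kb of an end, 15 with the largest rank ratio among genes in the first 5000 of a list, 10 private distal summits, 10 domains per list, list members that differed, and all HSC identity genes. Gm, Rik and Olfr genes were left out of the first 2. Of 644 names in 25 gene lists 643 were matched. Members, lists and rules were chosen with earlier results of these data known. Genes given as leaders of both lists, by count of distal summits, or as examples of list members less than 4-fold apart were picked with their values in view. A few genes that the rule names are not reported here. The 5 printed promoters were chosen among genes with an entry in the table.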

Additional observations from a re-analysis of the deposited data

How the results depend on the processing

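Merging summits closer than 500 bp or keeping chromosomes 1 to 19 left all 10 main values inside their interval or within 1.5 times. Of 80 alternative values 42 stayed so and 38 moved. Values are given as young- then old-labelled. Sharing within 250 bp gave 39.0% and 37.9% of distal and 68.0% and 66.9% of gene-end summits, and within 1000 bp 48.7%, 46.4%, 90.2% and 83.5%. The first 10000 of each list gave 55.3% and 60.3% for distal and 83.3% and 78.2% for gene-end summits, with distal shares of 20.9% and 19.2%, so the order of the libraries at distal positions turned. Lists as deposited gave 74.8% and 17.3%, 84.0% and 55.8%, and a distal share of 58.6% for the old-labelled list. Distal limits of 5 and 20 kb gave distal shares of 55.1% and 55.7%, and 29.8% and 30.9%. Gene ends within 500 bp gave 82.9% shared for the young-labelled list and, within 2 kb, 74.2% and 74.1%.

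Genes in 1 list only numbered 347 and 3632 as deposited. Gene ends within 500 bp gave 1137 young-labelled ones, start sites 403, and absence within 5 kb 270 and 816. The 107 genes nearer the top in the young-labelled list became 58 with ends within 500 bp and 186 as deposited. The whole ABC-labelled list held 28.3% and 38.8% of private distal and 46.2% and 42.6% of private gene-end summits. With ends within 2 kb the log2 rank ratio turned to -0.18 for Dgcr8, -2.08 for Myl6b and -0.91 for Zgpat, as other summits entered the window. Start sites, same-site genes, absence in equal-length lists and the whole ABC-labelled list were added after seeing the data. Other causes were not tested.

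No paired analysis was possible because each group had 1 library. Unknown depth, 1 library a group and names that go against the labels limit every value.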
